A study of Mus musculus with 8 samples.

Results

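The tricarboxylic acid (TCA) cycle is the mitochondrial ring of reactions that oxidises the acetyl group of acetyl-CoA to carbon dioxide and passes the electrons to the respiratory chain. The genes described here encode 9 of its core proteins: citrate synthase (Cs), the subunits of the NAD-dependent isocitrate dehydrogenase (Idh3a, Idh3b, Idh3g), the first enzyme of the 2-oxoglutarate dehydrogenase complex (Ogdh), subunits of succinate-CoA ligase (Sucla2, Suclg1), fumarase (Fh1) and mitochondrial malate dehydrogenase (Mdh2). They were taken by name, as the probe sets that the platform annotation pairs with these symbols alone. Each of the 9 had 1 probe set, so all 9 were measured, out of 19505 named genes. Quiescent blood stem cells are known for a reliance on glycolysis, while entry into division and differentiation draws on mitochondrial oxidation. The cycle also meets iron directly, since succinate dehydrogenase, for example, carries iron-sulfur clusters. None of the 9 proteins above is an iron-sulfur subunit.

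The cells were mouse bone marrow hematopoietic stem cells, sorted as lineage-negative, c-Kit+, Sca-1+, CD150+ and CD48- from animals aged 6 to 10 weeks. Both groups were grown in medium with stem cell factor at 100 ng/ml and differed in a 16 h exposure, to eltrombopag at 10 µg/ml in 4 arrays or to sterile water as the vehicle in the other 4. Eltrombopag is an agonist of the human thrombopoietin receptor given to people with low platelet counts. It does not activate the mouse receptor, and it chelates iron. The question put to the arrays was how the drug alters transcripts in stem cells of the mouse. Strain and sex are not stated in the labels. The titles call the numbered replicates biological, but separate animals behind them are not stated. The p-values thus describe how these 8 samples scatter, which may be partly technical. All values are log2 expression values, where a difference of 1 is a 2-fold change.

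Of 12 sorted stem cell genes fixed as markers, 9 were measured, and the mean over the 8 arrays lay above the arrays' median log2 value of 6.78 for all 9. Kit, which encodes the c-Kit receptor used in the sort, lay between 12.8 and 12.9 in the 8 arrays. Slamf1, which encodes CD150, ran from 6.56 to 7.24 with vehicle and from 6.19 to 7.75 with eltrombopag. Its lowest array in each group was thus below that median. Ly6a, which encodes Sca-1, was not measured. Cd48, excluded by the sort, ran from 5.79 to 6.27 with vehicle and from 5.66 to 6.55 with eltrombopag. Of the measured markers of other cells, the mean over the 8 arrays lay above that median for 1 of 3 erythroid, 3 of 6 neutrophil and monocyte, 3 of 4 megakaryocyte, 1 of 4 B cell, 1 of 6 T and NK cell, 0 of 4 mast cell and basophil, and 3 of 7 stromal and endothelial genes. The mean log2 value of the megakaryocyte genes ran from 7.75 to 8.28 with vehicle and from 8.08 to 8.23 with eltrombopag, and that of the mast cell and basophil genes from 4.32 to 4.49 and from 4.32 to 4.59. In every marker list the ranges of this mean overlapped between the groups, and 0 of its members were called. In bulk samples fewer cells of a type and less RNA per cell cannot be told apart. The first principal component, with 25.5% of the variance, set arrays 1 and 2 of both groups apart from arrays 3 and 4. The Y-linked gene Uty was at 7.71 and 6.98 in the vehicle and eltrombopag arrays numbered 3, and between 3.02 and 3.31 in the other 6. Kdm5d, also Y-linked, was at 7.08 and 6.36 in the same arrays and between 3.37 and 3.81 in the other 6. Number 3 thus differed from the other numbers in Y-linked signal, a difference that a comparison across replicate numbers includes.

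The 9 enzyme transcripts differed little from their vehicle levels. None was called: limma gave 0 of 9, and 0% of all 19505 genes, at an adjusted p under 0.05. In none of the 9 did the groups separate without overlap, a pattern seen in 2.12% of all genes, and 0 of 9 had an unadjusted p under 0.05, against 3.33% of all genes. With eltrombopag 5 of the 9 were higher and 4 lower. Their median log2 difference was 0.017, beside 0.0071 over all genes, and the single differences ran from -0.13 for Cs to 0.16 for Suclg1. The adjusted p was 0.99978 for every enzyme in limma, so no direction is drawn from these differences.

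**Figure D1:**
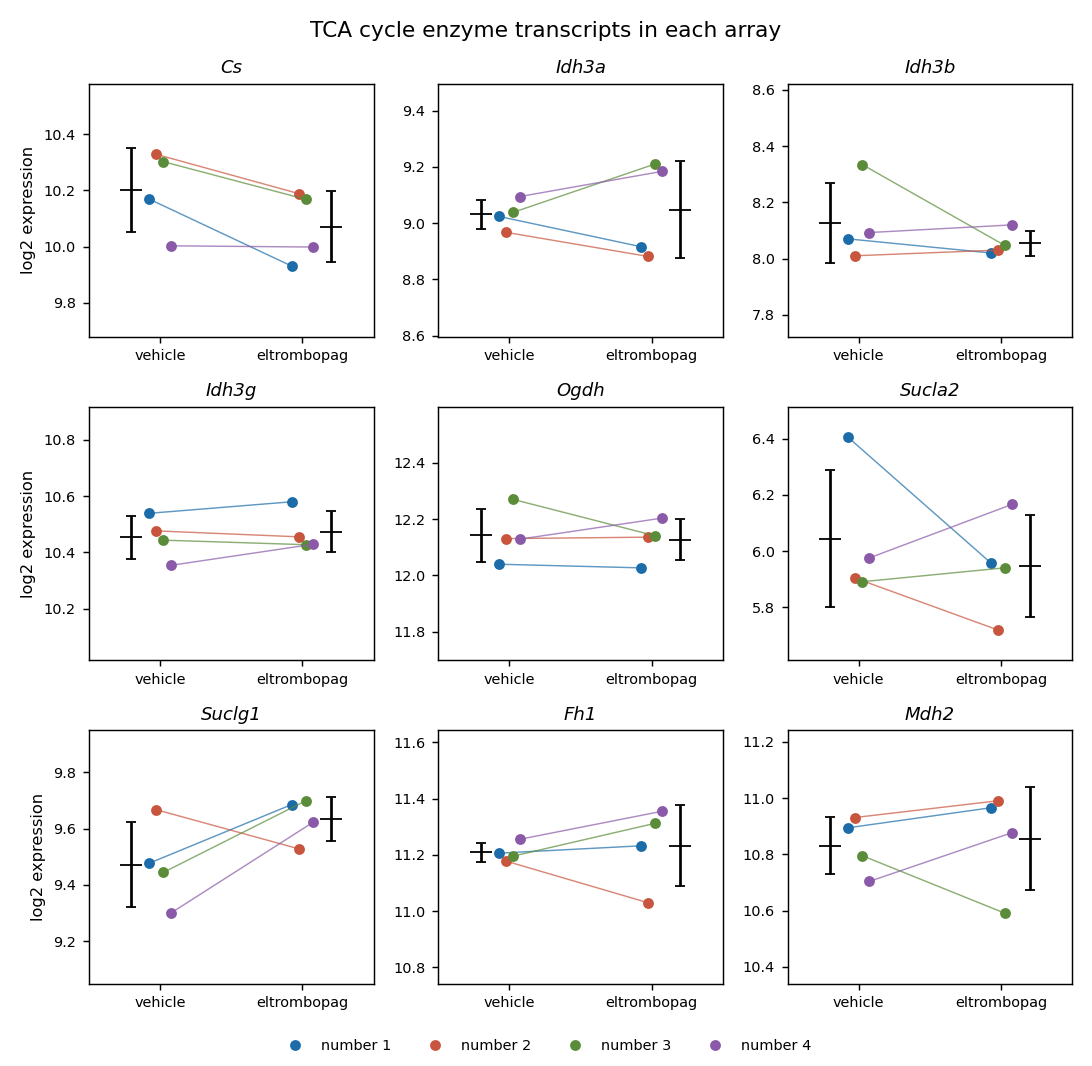
Log2 expression (y axis, each panel spanning the same range of log2 units) of the 9 enzyme genes in the vehicle and eltrombopag arrays; points are arrays, thin lines join arrays of the same replicate number, and black bars give the mean and SD of 4 arrays. In each panel the 2 groups overlap; vehicle array 1 of Sucla2, at 6.40, stands above the other vehicle arrays.

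The intervals were narrow. The 95% interval of the difference, which is not adjusted over genes, lay inside a 1.5-fold change in either direction for 9 of 9 enzymes, compared with 88.0% of all genes. It lay inside a 1.3-fold change for 7 of 9, compared with 51.3% of all genes. The 2 that reached beyond 1.3-fold were Sucla2, on the lower side, and Suclg1, on the higher side. The median residual SD of the 9 between arrays of a group was 0.12, against 0.18 over all genes, and Sucla2 alone was above the latter, at 0.21. Their signal was also mostly high, as 8 of the 9 had means above the arrays' median value. Sucla2 was the exception, with a mean of 6.04 with vehicle, and how far dim probe sets follow their transcript is not known here.

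Citrate synthase joins acetyl-CoA to oxaloacetate and starts the cycle. Cs had log2 values of 10.17, 10.33, 10.30 and 10.00 in vehicle arrays 1 to 4, and of 9.93, 10.19, 10.17 and 9.998 in the eltrombopag arrays of the same numbers. Eltrombopag arrays 2 and 3 lay inside the vehicle range and arrays 1 and 4 below it, and the 2 arrays numbered 4 were nearly equal. The group means were 10.20 ± 0.15 and 10.07 ± 0.13 (SD, n = 4), a difference of -0.13 (SE 0.11, 95% interval -0.37 to 0.11). Cs was the only 1 of the 9 that was lower in all 4 pairs of arrays with the same number, with a difference of -0.0043 in number 4. A common direction in all 4 pairs was seen in 12.6% of all genes, so 1 of 9 is near that background.

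Isocitrate dehydrogenase is a rate-controlling step of the cycle, and the mitochondrial NAD-dependent form is built from a catalytic alpha subunit with beta and gamma subunits. Idh3a, the alpha subunit, had 9.02, 8.97, 9.04 and 9.09 in vehicle arrays 1 to 4 and 8.92, 8.88, 9.21 and 9.18 in the eltrombopag arrays. The eltrombopag arrays numbered 1 and 2 thus lay below every vehicle array, and those numbered 3 and 4 above every one. The mean difference was 0.017 (SE 0.11, 95% interval -0.22 to 0.25), made up of -0.097 within numbers 1 and 2 and 0.13 within numbers 3 and 4. Whether these differ was not tested, as the split between the numbers comes from the data. The SD was 0.052 with vehicle and 0.17 with eltrombopag (n = 4 each).

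Idh3b, the beta subunit, had 8.07, 8.01, 8.33 and 8.09 with vehicle and 8.02, 8.03, 8.05 and 8.12 with eltrombopag. Vehicle array 3 was the high value, and the other 7 lay between 8.01 and 8.12. The difference of -0.073 (SE 0.098, 95% interval -0.29 to 0.15) was -0.0034 without that array. Idh3g, the gamma subunit, had 10.54, 10.48, 10.44 and 10.35 with vehicle and 10.58, 10.46, 10.43 and 10.43 with eltrombopag. This was the steadiest of the 9 within groups, with a residual SD of 0.075. Its difference was 0.020 (SE 0.090, 95% interval -0.18 to 0.22), and the groups lay on top of each other. None of the 3 subunit genes of this enzyme differed by more than the spread between arrays.

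Ogdh, the subunit of the 2-oxoglutarate dehydrogenase complex that decarboxylates 2-oxoglutarate, had 12.04, 12.13, 12.27 and 12.13 with vehicle and 12.03, 12.14, 12.14 and 12.20 with eltrombopag. Both arrays numbered 1 were the lowest of their group. The difference was -0.016 (SE 0.092, 95% interval -0.22 to 0.19), which on the linear scale runs from 0.858 to 1.14 times the vehicle level.

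Succinate-CoA ligase makes succinate from succinyl-CoA together with a nucleoside triphosphate. Its alpha subunit, encoded by Suclg1, pairs with either an ATP-type beta subunit, Sucla2, or a GTP-type one, Suclg2. Suclg1 had 9.48, 9.67, 9.44 and 9.30 in vehicle arrays 1 to 4, and 9.69, 9.53, 9.70 and 9.62 in the eltrombopag arrays. Vehicle array 2, at 9.67, was as high as the eltrombopag arrays, and the other 3 vehicle arrays lay below all of them. The group means were 9.47 ± 0.15 and 9.63 ± 0.078 (SD, n = 4). The difference of 0.16 (SE 0.10, 95% interval -0.066 to 0.39) had the smallest unadjusted p of the 9 in limma, 0.146, and was higher in 3 of 4 pairs. The upper end of its interval corresponds to 1.31 times the vehicle level.

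Sucla2 had 6.40, 5.90, 5.89 and 5.98 with vehicle and 5.96, 5.72, 5.94 and 6.17 with eltrombopag. It was the most variable of the 9, with SDs of 0.24 and 0.18 (n = 4 each), and vehicle array 1 stood above all other arrays. The difference was -0.098 (SE 0.14, 95% interval -0.41 to 0.21), and its sign turned to 0.023 without that array. For Suclg2, a gene outside the 9, the difference was -0.10 (SE 0.13, 95% interval -0.38 to 0.18), with eltrombopag arrays 1 and 2 at 8.36 and 8.29 and arrays 3 and 4 at 7.86 and 7.96. The alpha subunit and the beta subunits thus had differences of opposite sign, none of them past the test.

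Fumarase hydrates fumarate to malate, and malate dehydrogenase oxidises malate to oxaloacetate, which closes the cycle. Fh1 had 11.21, 11.18, 11.20 and 11.26 with vehicle, and 11.23, 11.03, 11.31 and 11.36 with eltrombopag. The vehicle arrays were nearly equal, with an SD of 0.033, and lay inside the range of the eltrombopag arrays, whose SD was 0.14 (n = 4 each). Its difference was 0.024 (SE 0.098, 95% interval -0.19 to 0.24). Mdh2 had 10.89, 10.93, 10.79 and 10.70 with vehicle and 10.97, 10.99, 10.59 and 10.88 with eltrombopag. Here the eltrombopag array numbered 3 was the lowest of all 8. The difference was 0.025 (SE 0.11, 95% interval -0.23 to 0.28), with 3 of 4 pairs higher and a difference of -0.20 in number 3.

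**Figure D2:**
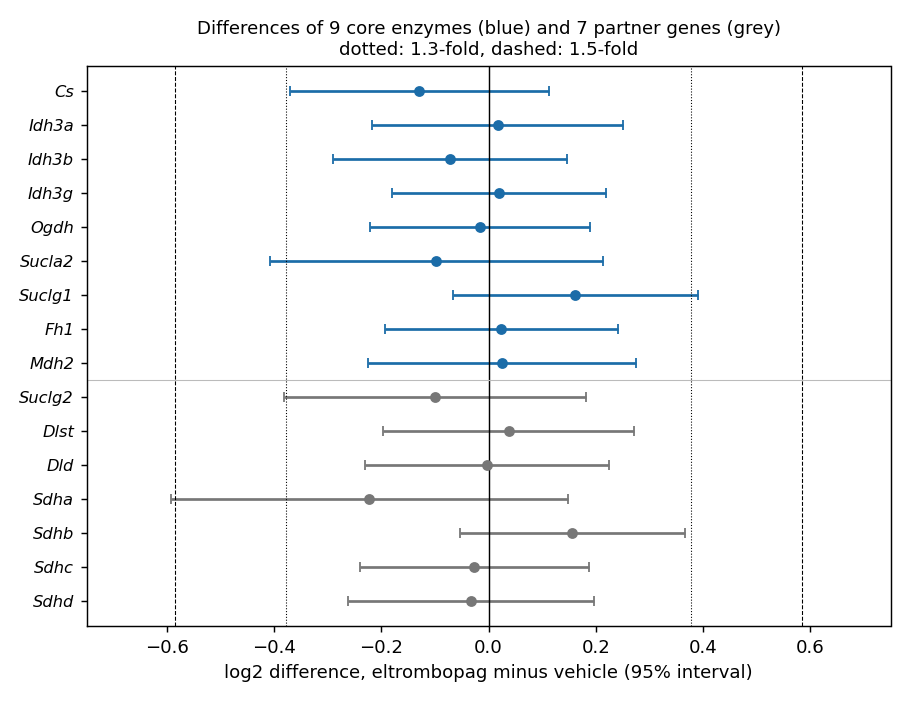
Log2 difference between eltrombopag and vehicle (x axis) with its 95% interval from limma for the 9 core enzymes (blue) and 7 partner genes of the cycle (grey); dotted and dashed lines mark 1.3-fold and 1.5-fold. Every interval includes 0, the 9 blue ones end inside 1.5-fold, and that of Sdha reaches -0.59.

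Arrays of the same number gave another view of the treatment. The median difference over the 9 enzymes was -0.013 in number 1, -0.086 in number 2, -0.016 in number 3 and 0.090 in number 4. In number 4 the eltrombopag array was the higher in 8 of 9 enzymes, while it was the higher in 4, 3 and 4 of 9 in numbers 1, 2 and 3. Over all genes the median differences of the 4 numbers lay between -0.0022 and 0.017, with -0.0022 in number 4. The largest single differences were -0.45 for Sucla2 in number 1 and 0.32 for Suclg1 in number 4. The SD of the 4 medians was 0.072, larger than the median difference of 0.017 over all arrays.

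**Figure D3:**
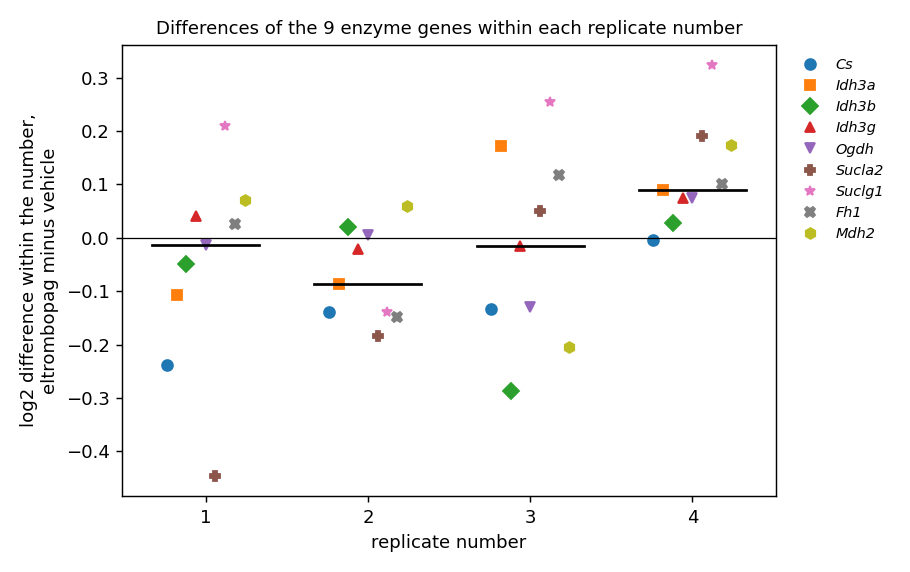
Log2 difference between the eltrombopag and the vehicle array of each replicate number (x axis) for the 9 enzyme genes (symbols), with black bars at the median of the 9. The medians are -0.013, -0.086, -0.016 and 0.090, and in number 4 only Cs lies below 0.

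The enzymes were also compared across the 4 replicate numbers, each with 1 vehicle and 1 eltrombopag array, with treatment as a further term. limma's F test called 0 of the 9 and 0.21% of all genes (41 of 19505). The smallest unadjusted p was 0.188, for Cs (adjusted p 0.629 in limma), whose mean was 10.26 in number 2 and 10.00 in number 4. Idh3a had means of 8.97 and 8.92 in numbers 1 and 2 and of 9.12 and 9.14 in numbers 3 and 4, without passing (adjusted p 0.720 in limma). Mdh2 showed the reverse order, with 10.93 and 10.96 against 10.69 and 10.79 (adjusted p 0.687 in limma). The split of the arrays on the first principal component was not tested by itself in these enzymes. The F test asks about any difference among the 4 numbers. The test counts the 2 arrays of a number as independent, which the labels do not settle.

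The mean profile of the 9 enzymes over the 8 arrays was nearly flat, with an SD of 0.043. Single enzymes had SDs from 0.070 (Idh3g) to 0.21 (Sucla2). The root-mean-square distance of an enzyme from the mean profile ran from 0.067 for Idh3g to 0.17 for Sucla2. Each was more than the SD of the mean profile itself, which averaging lowers unless the genes move together. Among 19454 other genes at least as variable as the mean profile, the 5 nearest to it were Ociad1 (distance 0.018), Clptm1 (0.020), 6820431F20Rik (0.024), Fam13c (0.031) and Mrpl14 (0.032), over 8 arrays.

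The other genes of the cycle did not pass either. Of 8 partner genes 7 were measured. limma called 0 of the 7 (0 at an unadjusted p under 0.05), with 2 higher and 5 lower and a median log2 difference of -0.027. Sdhb, the iron-sulfur subunit of succinate dehydrogenase, had 10.40, 10.12, 10.22 and 10.15 with vehicle and 10.40, 10.39, 10.39 and 10.33 with eltrombopag. Vehicle array 1 was as high as the eltrombopag arrays, and the other 3 vehicle arrays were below them. Its difference was 0.16 (SE 0.095, 95% interval -0.053 to 0.37), higher in 4 of 4 pairs but by only 0.00023 in number 1, with an adjusted p of 0.99978 in limma.

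Sdha, the flavoprotein subunit of the same enzyme, had 8.62, 9.40, 9.32 and 9.24 with vehicle and 9.04, 8.94, 9.01 and 8.70 with eltrombopag, a difference of -0.22 (SE 0.17). Vehicle array 1 was the lowest of all 8 arrays, below every eltrombopag array, and the other 3 vehicle arrays lay above them all. The difference was -0.40 without that array, and -0.14 without vehicle array 2 and -0.15 without eltrombopag array 4. The membrane subunits Sdhc and Sdhd differed by -0.027 (SE 0.097) and -0.033 (SE 0.10). Dlst and Dld, the other enzymes of the 2-oxoglutarate dehydrogenase complex, differed by 0.037 (SE 0.11) and -0.0031 (SE 0.10). Neither these nor the succinate dehydrogenase subunits passed, each with an adjusted p of 0.99978 in limma.

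For reactions that feed or drain the cycle, limma called 0 genes in each of 4 lists, and 1 of their 31 measured genes, Me2, had an unadjusted p under 0.05, which is near the 3.33% of all genes. Other isoforms of cycle enzymes, which include cytosolic forms and the malic enzymes, were higher in 2 and lower in 5 of 7 (median -0.079). Among them was Me2, a mitochondrial malic enzyme that turns malate into pyruvate. It had 6.17, 6.25, 6.43 and 6.25 with vehicle and 6.07, 6.09, 6.15 and 5.88 with eltrombopag. Its group means of 6.28 and 6.05 were below the arrays' median log2 value of 6.78. All eltrombopag values lay below all vehicle values, the nearest being 6.15 and 6.17, and 1 such gene of 31 is near the 2.12% of all genes. The difference was -0.23 (SE 0.10, unadjusted p 0.0490 and adjusted p 0.99978 in limma). Me1, the cytosolic malic enzyme, differed by -0.22 (SE 0.13).

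Pyruvate entry, which covers pyruvate import, the pyruvate dehydrogenase complex with its kinases and phosphatases, and pyruvate carboxylase, was higher in 7 and lower in 6 of 13 measured genes (median 0.0072). Pcx, pyruvate carboxylase, which makes oxaloacetate from pyruvate, differed by 0.22 (SE 0.11). It was 1 of 2 genes of the 13 with the same direction in all 4 pairs, near the 12.6% of all genes. Pdhx, which anchors the E3 enzyme in the pyruvate dehydrogenase complex, differed by -0.30 (SE 0.18), and by -0.18 without vehicle array 4 and -0.17 without eltrombopag array 1. Neither passed (adjusted p 0.99978 in limma for each).

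Glutamine and glutamate entry was higher in 3 and lower in 2 of 5 measured genes (median 0.019). Slc25a22, a mitochondrial glutamate carrier, differed by -0.082 (SE 0.16), and Got1, the cytosolic aspartate aminotransferase, by 0.088 (SE 0.20). Citrate export and carriers were higher in 3 and lower in 3 of 6 (median -0.0049). There Slc25a11, the 2-oxoglutarate carrier, differed by -0.048 (SE 0.10) and Slc25a12, an aspartate-glutamate carrier, by -0.045 (SE 0.13).

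**Figure D4:**
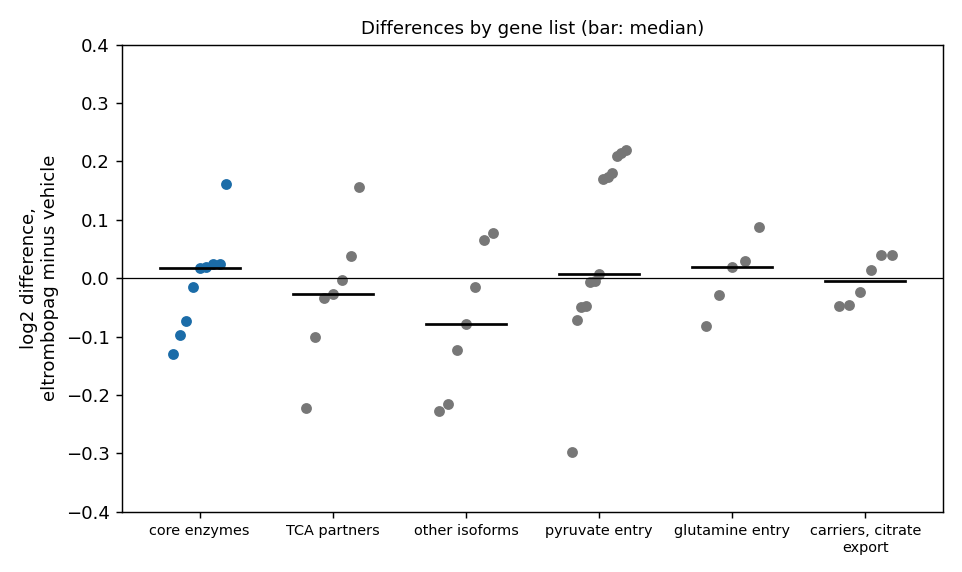
Log2 difference between eltrombopag and vehicle (y axis) for each measured gene of the 9 core enzymes (blue) and of the 5 further lists of the pathway (grey), with black bars at the medians. The medians lie between -0.079 and 0.019, and no gene in the plot passed the test.

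Across the replicate numbers, 1 gene around the cycle passed the test, and it no longer passed once any array was left out. Gpt2, the mitochondrial alanine aminotransferase, which makes 2-oxoglutarate from glutamate, had 7.78, 8.04, 6.73 and 6.07 in vehicle arrays 1 to 4 and 7.82, 8.01, 6.36 and 6.32 in the eltrombopag arrays. Arrays 3 and 4 of both groups lay at least 1 log2 unit below arrays 1 and 2. The adjusted p was 0.0246 in limma's F test across the numbers, and it was 0.0644 without both arrays numbered 3. Without any 1 of the 8 arrays it lay between 0.0581 and 0.1404. In those fits, which have fewer samples, the count of genes called over all genes also fell, from 41 to between 3 and 17. Between eltrombopag and vehicle Gpt2 differed by -0.029 (SE 0.50, 95% interval -1.13 to 1.07), with an SE of 0.12 when the replicate number was a block. Gpt2 was chosen for this paragraph after its values were seen. It was the only 1 of 38 measured pathway genes outside the 9 enzymes that passed across the numbers. Over all genes 0.21% passed that test (41 of 19505).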

How the data were processed

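Each array gave 1 log2 expression value per probe set, deposited by the authors as log2 values. RMA, oligo and limma are the tools in the submitters' processing notes, with no version. RMA removes background, sets arrays to a common distribution and summarises probes, so differences in total RNA are lost. About 10 ng of RNA was amplified per array, per the labels' protocols. No genome build was stated.

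The table held 22206 probe sets, of which 19572 had 1 gene symbol, while 2634 did not and were unnamed here. Those with 1 symbol gave 19505 genes, and the probe set with the highest mean stood for each of the 55 genes with several. Groups were compared in limma 3.58.1 under R 4.3.3 (lmFit, eBayes, two-sided), with treatment as the only term and Benjamini-Hochberg adjustment over all genes. Dim genes were kept. The fits were tested on simulated data. Precision is limited by the number of arrays.

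The members and lists were chosen with earlier results of these data known. Named genes were the 9 enzymes, each TCA partner, the 2 genes with the smallest p in each other list, and the 5 nearest profiles. Of 105 list entries, 91 were measured. Alternatives covered the replicate block, a filter on dim genes, scaling, array weights, probe set choice and left-out arrays.

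Both groups carry the numbers 1 to 4. Deviations from the group means correlated across probe sets at 0.142 to 0.294 for arrays sharing a number and at -0.208 to 0.171 otherwise. As all 4 same-number values were over 0.1, same-numbered arrays were treated as matched for the block, a choice resting on the data alone. That rule does not single out the match of number 4, whose arrays gave 0.142. Vehicle array 4 with eltrombopag array 3 gave 0.171, and vehicle array 3 with eltrombopag array 4 gave 0.168. Treatment values come from the fit without the block, and the fit with the block is an alternative.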

Additional observations from a re-analysis of the deposited data

Results flagged for a closer look

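Values were screened for a lone array in 24 genes, which makes 48 groups of 4. There were 2 cases, where chance gives about 2.4 (1 group in 20). For Sucla2, vehicle array 1 read 6.40 while its 3 fellow arrays ran from 5.89 to 5.98, a gap of 0.835 of the whole range. The vehicle SD was 0.24 with it and 0.046 without it. For Pdhx, vehicle array 4 read 7.75 while the remaining 3 ran from 7.24 to 7.29, a gap of 0.912 of the range, with SDs of 0.25 and 0.023.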

How the results depend on the processing

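The count of called enzymes was 0 of those tested in each of 17 alternatives to the treatment fit, and the count over all genes was 0 in each as well; a filter to genes brighter than the median dropped Sucla2. With the replicate block 0 enzymes passed (smallest adjusted p 0.986 in limma), and it changed no call; genes at an unadjusted p under 0.05 numbered 904 in place of 650, and 304 with the filter, which tests fewer genes. The block, the filter and the mean of probe sets left the difference of each tested enzyme unchanged, so they could not turn its sign. The sign was kept in all 17 by Cs, Idh3b and Suclg1, though Idh3b was at only -0.00094 without both arrays numbered 3. It turned for Idh3a (-0.097 with numbers 1 and 2 only, -0.035 without both arrays numbered 3), Fh1 (-0.061 and -0.0075 in the same settings), Ogdh (0.022 without both arrays numbered 3), Sucla2 (0.12 with numbers 3 and 4 only) and Mdh2 (-0.016 with numbers 3 and 4 only). Idh3g turned only in fits that left out 1 array. For these turns the cause was not tested. With each array left out in turn, Cs ran from -0.19 to -0.082, Idh3a from -0.037 to 0.073, Idh3b from -0.11 to -0.0034, Idh3g from -0.016 to 0.048, Ogdh from -0.050 to 0.027, Sucla2 from -0.17 to 0.023, Suclg1 from 0.10 to 0.23, Fh1 from -0.017 to 0.091 and Mdh2 from -0.020 to 0.11. Pdhx and Sdha, added after seeing the data, kept their sign in all 17 (-0.45 to -0.17 and -0.40 to -0.14 with 1 array left out). Sdha was, however, at -0.021 with numbers 1 and 2 only and at -0.42 with numbers 3 and 4 only. The median of the 9 ran from -0.028 to 0.030 over the alternatives. Across the replicate numbers 0 enzymes were called in each of 13 alternatives, while the count over all genes fell from 41 to 2 without both arrays numbered 3 and to between 3 and 17 with 1 array left out (3 without either array numbered 3); these fits have fewer samples, and those that left out 1 array were chosen after seeing the data. Signal over background was not analysed here, so the reliability of a dim gene such as Sucla2 is not known.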
